A study of Homo sapiens with 12 samples.

Results

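The genes described are 10 secreted proteins of the extracellular matrix: FN1, THBS1, TNC, SPARC, POSTN, VCAN, FBN1, MFAP5, MGP and CRISPLD2. They were chosen by gene symbol, and each was measured by 1 probe set, a group of array probes for 1 transcript, out of 21448 probe sets in all. The choice was made with earlier results of these data known, the SK-216 changes among them, so the SK-216 values of the 10 genes are given as a description, without p-values.

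The matrix around a cell is a meshwork of secreted proteins. Fibronectin and the collagens build its fibres, fibrillins and their partners build microfibrils, and proteoglycans such as versican fill the space between. Matricellular proteins, among them thrombospondin 1, tenascin C, SPARC and periostin, sit in the matrix and signal through integrins and other receptors rather than bear load. In carcinomas most matrix comes from fibroblasts, but tumour cells can make these proteins too, above all in a mesenchymal state.

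RNA came from H1975 and PC-9, established human lung adenocarcinoma lines with a mutated epidermal growth factor receptor (EGFR), on arrays hybridised 1 sample at a time. In each line 3 arrays hold osimertinib-tolerant cells, alive on day 8 after 1 week with 0.5 µM osimertinib, an EGFR inhibitor, and 3 arrays hold tolerant cells that then survived SK-216, a small molecule called here by its code, given at 100 µM for 48 h. All 12 arrays thus come from cells that survived osimertinib, and no untreated cells were analysed here. The labels describe no tolerant cells kept for those 48 h without SK-216, do not say whether osimertinib stayed in the medium, and in 1 field call the starting cells of the SK-216 groups naive, so the compound, the added time and the selection of survivors cannot be told apart. They name no separate cultures, so p-values measure the spread between arrays, which may be technical. In a bulk sample, fewer cells that make an RNA and less of it per cell cannot be told apart.

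Values are log2 signals, and a difference of 1 is a doubling. Levels of different genes are not set against each other, because probe sets differ in how well they bind. Olfactory receptor genes, which are not expected to be expressed in these cells, gave the level of unexpressed genes: over 349 probe sets the median was 3.61, and 5.14, the 95th percentile, is taken as the top of what is below called the olfactory range. Within a group, 2 arrays had r of 0.993 to 0.995 over all probe sets. All 10 epithelial markers had means above that range, and 9 of 10 were called higher in tolerant PC-9 cells, against 21.3% of all probe sets. The summed log2 level of the epithelial markers was 16.92 to 17.00 in tolerant and 16.85 to 16.88 in SK-216 H1975 cells, and 18.34 to 18.47 and 18.48 to 18.55 in PC-9. Of markers of other cell types, 5 of 9 for fibroblasts, 4 of 9 for leukocytes and 2 of 8 for endothelium had means above that range over the 12 arrays. Among those above it in tolerant H1975 cells were COL1A2 at 9.02, COL1A1 at 8.95 and ACTA2 at 6.94 of the fibroblast list and CD68 at 12.24, CD14 at 6.75 and CSF1R at 6.63 of the leukocyte list, while CDH5 of endothelium was at 7.47 in tolerant PC-9 cells. Within it in every group were PDGFRA, THY1, FAP and PDPN of fibroblasts, PTPRC, CD3D, MS4A1 and LYZ of leukocytes, and PECAM1, KDR, TEK and EMCN of endothelium. For the 9 measured fibroblast markers it was 10.21 to 10.42 in tolerant and 9.85 to 9.99 in SK-216 H1975 cells, and 9.04 to 9.27 and 9.29 to 9.53 in PC-9. For leukocyte markers it was 12.22 to 12.44 and 12.29 to 12.40 in H1975 and 11.74 to 11.78 and 11.94 to 12.06 in PC-9, and for endothelial markers 7.39 to 7.65 and 7.47 to 7.66, then 8.36 to 8.57 and 8.14 to 8.31. In H1975 the SK-216 change of epithelial markers passed the test for 3 higher and 3 lower of 10. Their changes ran from -1.55 for CDH1 to 0.77 for EPCAM. Of the fibroblast markers COL1A1, a collagen chain, passed at -0.96. Of all probe sets 1.44% passed as higher and 2.35% as lower. The part of these markers in the matrix gene changes was not tested.

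Promoters are shown for FN1 and SPARC, called lower in H1975 after SK-216, and for VCAN, which was not called but had no overlap between its H1975 groups. Of the 10 genes 8 had an entry in the RefSeq promoter table (GRCh38.p14), and MGP and MFAP5 had none. The 250 bases before the start are printed for FN1 (chr2:215436069-215436318, minus strand), SPARC (chr5:151686916-151687165, minus strand) and VCAN (chr5:83471494-83471743, plus strand), 5′ to 3′ along the gene, with motif matches in capitals.

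FN1 promoter: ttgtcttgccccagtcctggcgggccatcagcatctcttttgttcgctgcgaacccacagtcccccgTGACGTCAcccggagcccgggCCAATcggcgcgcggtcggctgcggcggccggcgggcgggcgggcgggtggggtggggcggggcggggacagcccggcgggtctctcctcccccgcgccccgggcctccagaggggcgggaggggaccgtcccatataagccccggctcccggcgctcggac

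SPARC promoter: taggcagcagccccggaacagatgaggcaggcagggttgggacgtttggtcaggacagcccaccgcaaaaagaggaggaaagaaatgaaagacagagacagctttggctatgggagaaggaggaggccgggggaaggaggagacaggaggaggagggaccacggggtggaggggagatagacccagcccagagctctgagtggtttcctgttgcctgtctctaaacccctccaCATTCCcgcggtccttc

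VCAN promoter: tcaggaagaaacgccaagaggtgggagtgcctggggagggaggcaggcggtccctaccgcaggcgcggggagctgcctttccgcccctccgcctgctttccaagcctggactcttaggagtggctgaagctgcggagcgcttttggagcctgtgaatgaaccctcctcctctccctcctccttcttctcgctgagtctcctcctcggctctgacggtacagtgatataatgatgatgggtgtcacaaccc

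The capitals in FN1 are TGACGTCA, the cyclic AMP response element, at -183 to -176 from the start and CCAAT at -162 to -158. In SPARC they are CATTCC at -17 to -12, the TEAD motif GGAATG read on the other strand, and VCAN held none of the 7 motifs searched. On both strands and in the same 250 bases, TGACGTCA occurred in 1.65% of 35116 RefSeq promoters, CCAAT in 32.0%, GGAATG in 11.9%, the SMAD motif CAGACA in 13.6%, the AP-1 motif TGANTCA in 6.57%, the interferon-stimulated response element in 3.02% and TATAAA in 10.7%. None of these letter strings lies within another. Among the 8 genes GGAATG occurred in SPARC, THBS1 and FBN1, CCAAT in FN1 and THBS1, and CAGACA in TNC, while POSTN held TGANTCA, the interferon-stimulated response element and TATAAA. The GC content of the windows ran from 36.4% in POSTN to 77.6% in CRISPLD2, against a median of 58.0% over all promoters. TGACGTCA and CCAAT were added to the search after the promoters were read, so nothing is read from their shares. A match describes letters in a window and is not a measured site.

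FN1 encodes fibronectin, the adhesive glycoprotein that integrins assemble into fibrils. Its log2 signal was 13.79, 13.53 and 13.70 in tolerant H1975 cells and 12.91, 13.06 and 12.90 with SK-216. In PC-9 it was 12.17, 11.80 and 12.02 in tolerant cells and 12.05, 12.51 and 12.40 with SK-216. All H1975 arrays stood above all PC-9 arrays, the SK-216 arrays of H1975 stood below its tolerant arrays, and the PC-9 groups overlapped. The SK-216 change was -0.72 ± 0.12 in H1975 (log2 ± standard error of the fit, 3 arrays per group), with a 95% interval of -0.96 to -0.47. In PC-9 it was 0.32 ± 0.12, with an interval of 0.08 to 0.57 before any correction for the number of probe sets, and it was not called. With SK-216 the gap between the lines was smaller, at -0.64 ± 0.12 (PC-9 minus H1975) against -1.68 ± 0.12 in tolerant cells.

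THBS1 encodes thrombospondin 1, a matricellular trimer that binds CD36 and CD47 and can activate latent TGF-beta. It measured 15.87, 16.00 and 15.89 in tolerant and 15.84, 15.92 and 16.10 in SK-216 H1975 cells. PC-9 cells gave 16.98, 16.64 and 16.71 without and 16.79, 16.74 and 16.85 with the compound. Every PC-9 array was above every H1975 array, and within each line the groups overlapped. The SK-216 change was 0.03 ± 0.08 in H1975 (95% interval -0.13 to 0.20) and 0.02 ± 0.08 in PC-9 (-0.15 to 0.18). Among the 10 genes THBS1 had narrow intervals around 0 in both lines.

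TNC encodes tenascin C, a hexameric glycoprotein of wounds and tumour stroma. In H1975 it measured 9.82, 9.54 and 9.98 in tolerant cells and 9.20, 9.23 and 9.54 with SK-216, so that the groups met at 9.54. In PC-9 it measured 3.73, 3.38 and 3.62, then 3.75, 3.41 and 3.59, all within the olfactory range. TNC was thus measured above that range in H1975 alone among these 2 lines. The SK-216 change in H1975 was -0.46 ± 0.20 (95% interval -0.87 to -0.04) and was not called.

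SPARC encodes osteonectin, a collagen-binding matricellular protein. Tolerant H1975 cells gave 14.48, 14.53 and 14.55, and SK-216 H1975 cells gave 13.91, 13.86 and 14.05. PC-9 gave 14.67, 14.64 and 14.64 in tolerant cells and 14.56, 14.57 and 14.72 with SK-216. The SK-216 arrays of H1975 were the lowest, and the PC-9 groups overlapped. The change was -0.58 ± 0.08 in H1975 (95% interval -0.74 to -0.42) and -0.03 ± 0.08 in PC-9 (-0.19 to 0.13). Tolerant cells of the lines differed by 0.13 ± 0.08, which did not pass the test (limma adjusted p = 0.196) although their arrays did not overlap, while SK-216 cells differed by 0.68 ± 0.08.

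POSTN encodes periostin, a matricellular ligand of integrins made mainly by fibroblasts. All 12 values lay within the olfactory range, from 3.58 to 4.90. POSTN was therefore not measured above the level of unexpressed genes in either line, and no fold change is given for it.

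VCAN encodes versican, the large chondroitin sulfate proteoglycan that binds hyaluronan. In tolerant H1975 cells it measured 14.81, 14.74 and 14.64, and with SK-216 14.25, 14.24 and 14.23. In PC-9 it measured 4.81, 4.51 and 4.38 in tolerant and 5.52, 4.86 and 4.58 in SK-216 cells, where 1 of 6 arrays rose above the olfactory range. VCAN was thus bright in H1975 and at the level of unexpressed genes in PC-9. In H1975 every SK-216 array was below every tolerant array, and the change was -0.49 ± 0.18 (95% interval -0.86 to -0.12). The fit of all 12 arrays, which shares 1 spread between groups, did not call it. The SD was 0.09 and 0.01 in the H1975 groups but 0.22 and 0.48 in PC-9, and in H1975 fitted alone the same change had a standard error of 0.08 and was called. This was the only 1 of 20 alternative settings that called it, and the other 19 did not.

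FBN1 encodes fibrillin 1, the backbone of microfibrils. It measured 5.34, 4.95 and 5.33 in tolerant and 6.17, 5.64 and 4.92 in SK-216 H1975 cells, and 5.99, 6.36 and 6.56 then 6.42, 6.27 and 5.95 in PC-9. All 6 PC-9 arrays but 2 of 3 in each H1975 group were above the olfactory range. The SK-216 change was 0.37 ± 0.26 in H1975 and -0.09 ± 0.26 in PC-9, with overlapping groups in both, and the intervals of -0.17 to 0.91 and -0.63 to 0.45 leave room for changes of moderate size.

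MFAP5 encodes a glycoprotein that binds fibrillin in microfibrils. It measured 9.11, 8.82 and 8.56 in tolerant PC-9 cells and 10.14, 9.98 and 9.67 with SK-216. H1975 gave 4.38, 4.30 and 4.15, then 3.94, 3.65 and 4.58, all within the olfactory range. Every SK-216 array of PC-9 stood above every tolerant array of that line, and its line pattern was opposite to that of VCAN and TNC. The SK-216 change in PC-9 was 1.10 ± 0.23 (95% interval 0.63 to 1.57), a 2.14-fold increase, the 13th largest among all probe sets. The call ended without tolerant array 2 or 3 or without SK-216 array 1 or 2 of PC-9, while over all 12 fits that left out 1 array the change ran from 0.96 to 1.24.

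MGP encodes matrix Gla protein, a vitamin K-dependent inhibitor of calcification that also binds bone morphogenetic proteins. It measured 7.53, 7.05 and 7.97 in tolerant H1975 cells and 5.19, 5.50 and 4.66 with SK-216. PC-9 gave 4.61, 4.90 and 4.94, then 5.00, 4.77 and 5.18. Tolerant H1975 cells alone stood clear of the olfactory range, and with SK-216 the H1975 mean of 5.12 lay at its edge. The change in H1975 was -2.40 ± 0.25 (95% interval -2.92 to -1.88). Measured against the 95th percentile of olfactory receptor values, 5.14, in place of the dim SK-216 mean, MGP was lower by 2.38, or 5.19-fold. That value carries no sampling error and is not a minimum, since 2 of the 3 SK-216 arrays lay above 5.14. In PC-9, where both groups were near the edge, the change was 0.17 ± 0.25.

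CRISPLD2 encodes a secreted protein with a CAP domain and LCCL domains, known from lung development. It measured 11.07, 11.14 and 10.97 in tolerant PC-9 cells and 10.15, 10.34 and 10.39 with SK-216. H1975 gave 9.86, 10.36 and 10.62 in tolerant and 10.19, 10.06 and 10.54 in SK-216 cells. Tolerant PC-9 cells were the highest, and their SK-216 arrays came down to the level of H1975. The change in PC-9 was -0.77 ± 0.16 (95% interval -1.10 to -0.43), a 1.70-fold decrease. In H1975 it was -0.02 ± 0.16 (-0.35 to 0.32). The PC-9 call ended when any 1 of the 6 PC-9 arrays was left out, with changes between -0.81 and -0.69 over all 12 such fits.

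**Figure D1:**
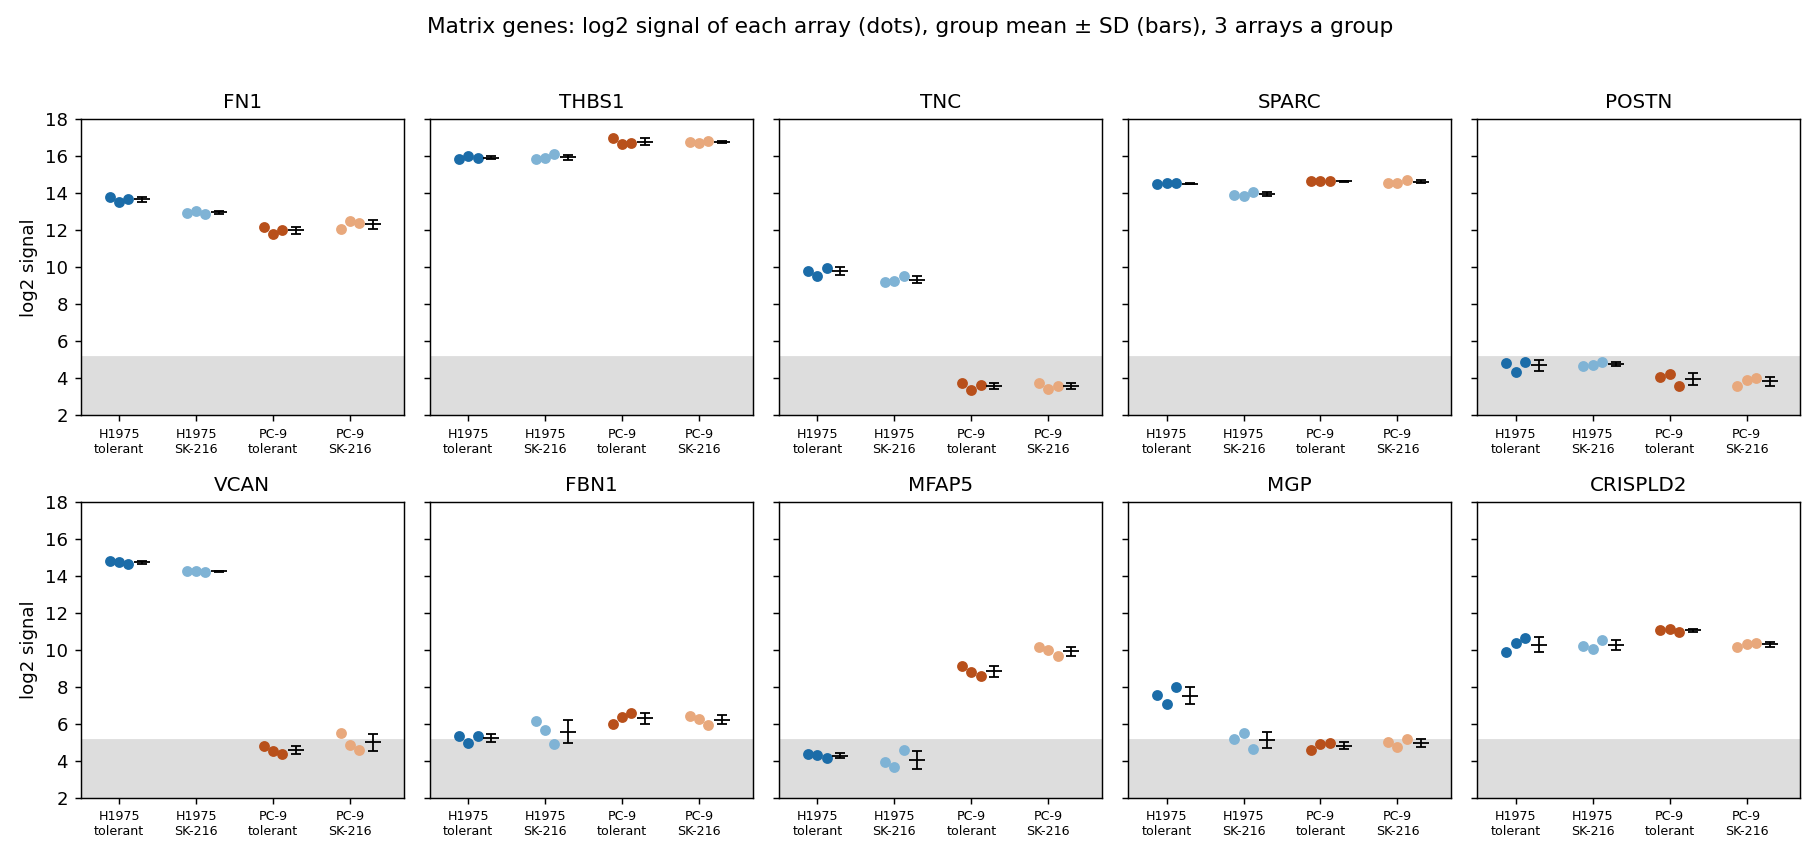
Log2 signal (vertical axis) of each array as a dot and the group mean ± SD of 3 arrays as a bar, for the 10 genes in the 4 groups; the grey band reaches up to the 95th percentile of olfactory receptor probe sets, 5.14. All arrays of VCAN and TNC in H1975, of MFAP5 in PC-9 and of MGP in tolerant H1975 cells stand above the band, 1 VCAN array of PC-9 reaches 5.52, and all POSTN arrays lie within it.

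The first comparison sets the lines against each other. In tolerant cells 9 of the 10 genes passed the test, 4 higher and 5 lower in PC-9, where 44.0% of all probe sets passed, 21.3% as higher and 22.7% as lower. The arrays of the 2 groups did not overlap for all 10 genes, against 50.2% of probe sets. The genes were chosen with results of these data known, so the p-values here, adjusted over all probe sets, set each difference against the spread of the arrays and are no independent support.

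The large differences are given as lower bounds, because the dim line lay in the olfactory range. Each bound sets the bright group mean against the top of that range and carries no sampling error. VCAN was at least 9.59 higher on the log2 scale in tolerant H1975 than in tolerant PC-9 cells, the measured difference being -10.16 ± 0.18 (PC-9 minus H1975, limma adjusted p = 6.95e-23). TNC was at least 4.64 higher in H1975, measured at -6.20 ± 0.20 (limma adjusted p = 4.93e-18), and MGP at least 2.38 higher, measured at -2.70 ± 0.25 (limma adjusted p = 1.88e-09). MFAP5 went the other way, at least 3.69 higher in PC-9, measured at 4.55 ± 0.23 (limma adjusted p = 2.42e-14). These are single genes, and the related lists described below went both ways, apart from the CAP domain genes. In tolerant PC-9 cells 6 were called higher and 5 lower of 22 other matricellular genes. Of 23 microfibril and elastic fibre genes 6 were higher and 6 lower, and of 10 Gla protein genes 4 and 4. Of 22 proteoglycan and hyaluronan genes 4 were higher and 3 lower, and of 22 receptors of matrix proteins 6 and 7. Of 27 proteases and inhibitors 5 were higher and 9 lower, and of 11 CAP domain genes 3 were higher and 0 lower. Of all probe sets 21.3% were called higher and 22.7% lower.

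Genes measured in both lines differed less. FN1 was lower in PC-9 by a difference of -1.68 ± 0.12 (limma adjusted p = 1.29e-11). THBS1 was higher there by 0.86 ± 0.08 (limma adjusted p = 2.76e-09), CRISPLD2 by 0.78 ± 0.16 (limma adjusted p = 0.000242) and FBN1, from an H1975 level at the edge of the olfactory range, by 1.10 ± 0.26 (limma adjusted p = 0.00119). POSTN passed too, with both lines in the olfactory range, and lost the call without tolerant PC-9 array 3 (limma adjusted p = 0.0627).

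The same comparison in SK-216 cells called 7 of the 10 genes, 3 higher and 4 lower in PC-9, where 43.9% of all probe sets passed, 21.6% as higher and 22.2% as lower. MGP at -0.13 ± 0.25 and CRISPLD2 at 0.03 ± 0.16 differed between the lines in tolerant cells but did not pass here (limma adjusted p = 0.724 and 0.911), and SPARC passed here but not there (limma adjusted p = 6.69e-08). FBN1 was at 0.64 ± 0.26 (limma adjusted p = 0.0537) and did not pass. It passed without SK-216 array 1 of H1975 or SK-216 array 3 of PC-9, without the dimmest probe sets and with array weights. The mean of the dim line again lay in the olfactory range, and the bounds again carry no sampling error. Set against the top of that range, VCAN was 9.10 higher in H1975 (measured difference -9.25 ± 0.18). For VCAN that value is not a minimum, since 1 of the 3 SK-216 arrays of PC-9, at 5.52, lay above 5.14. TNC was at least 4.18 higher in H1975 (-5.74 ± 0.20). MFAP5 was at least 4.79 higher in PC-9 (5.87 ± 0.23).

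**Figure D2:**
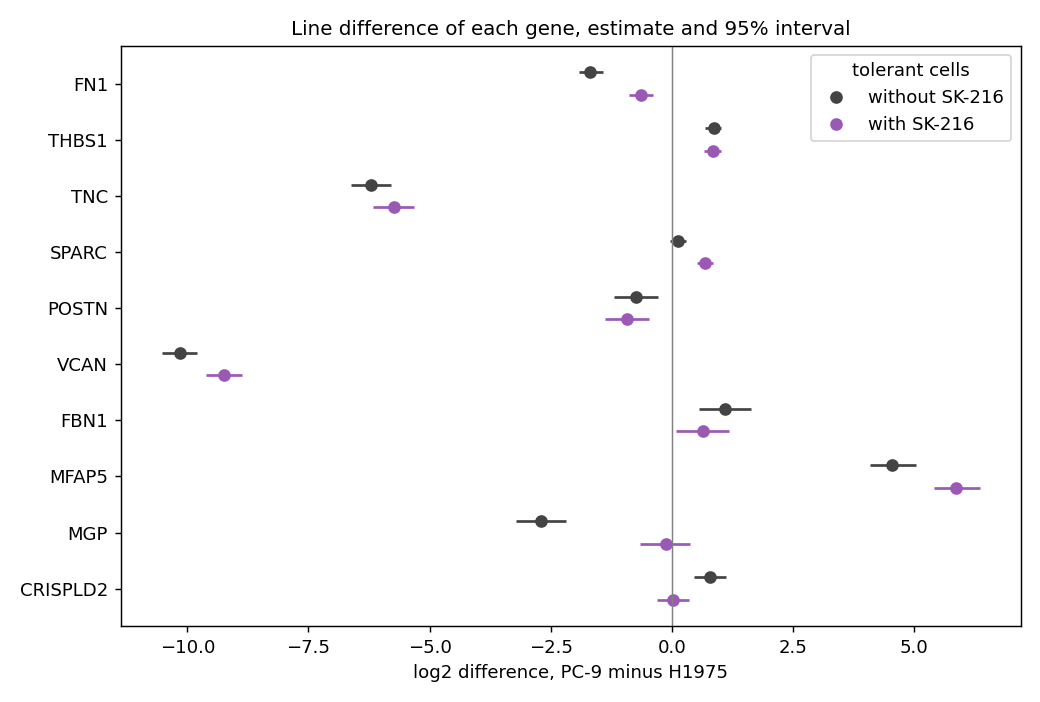
Log2 difference between the lines, PC-9 minus H1975 (horizontal axis), for each gene, with the estimate as a dot and the 95% interval as a line, in tolerant cells without SK-216 (grey) and with it (purple). VCAN, TNC and MFAP5 lie far from 0 in both, while MGP moves from -2.70 to -0.13 and CRISPLD2 from 0.78 to 0.03.

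The series was designed to compare tolerant cells with and without SK-216. In H1975 cells MGP, FN1 and SPARC fell, 3 of the 10 genes, and no gene was called higher, where 3.80% of all probe sets were called, 2.35% as lower and 1.44% as higher. VCAN also had no overlap between its arrays, so 4 genes were lower in every SK-216 array, against 9.56% of all probe sets. Nothing is read from these shares, since the genes were proposed with this contrast known. The median change of the 10 genes was -0.34, against 0.01 over all probe sets. The calls of MGP, FN1 and SPARC held whichever single array was left out, which describes these arrays and is no independent support.

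In PC-9 cells MFAP5 rose and CRISPLD2 fell, 2 of the 10 genes, where 0.443% of all probe sets were called, 0.373% as higher and 0.0699% as lower. These were also the only 2 of the 10 genes whose PC-9 groups did not overlap, which held for 15.0% of all probe sets. The median change of the 10 genes was 0.01, against 0.00 over all probe sets. Without the variance trend in the fit neither gene was called. The genes called in H1975 and those called in PC-9 shared no member.

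Whether the lines changed by different amounts was taken from the same fit, as PC-9 change minus H1975 change. It was 2.57 ± 0.35 for MGP, 1.32 ± 0.32 for MFAP5, 1.04 ± 0.17 for FN1 and 0.55 ± 0.11 for SPARC, and these 4 of the 10 genes were called, all in the positive direction, where 1.42% of all probe sets were, 1.09% in that direction. Nothing is read from this share either. For CRISPLD2 it was -0.75 ± 0.23 and for VCAN 0.91 ± 0.25, neither called, so that a line difference in their SK-216 change was not shown. VCAN was called without tolerant array 1 or SK-216 array 3 of PC-9, without the dimmest probe sets and with the replicate block, and CRISPLD2 without tolerant array 3 of H1975. MFAP5 kept its call in 3 of 12 fits on 11 arrays, those without tolerant array 1 or SK-216 array 3 of PC-9 or without SK-216 array 3 of H1975. Without the variance trend the call of MGP alone held.

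**Figure D3:**
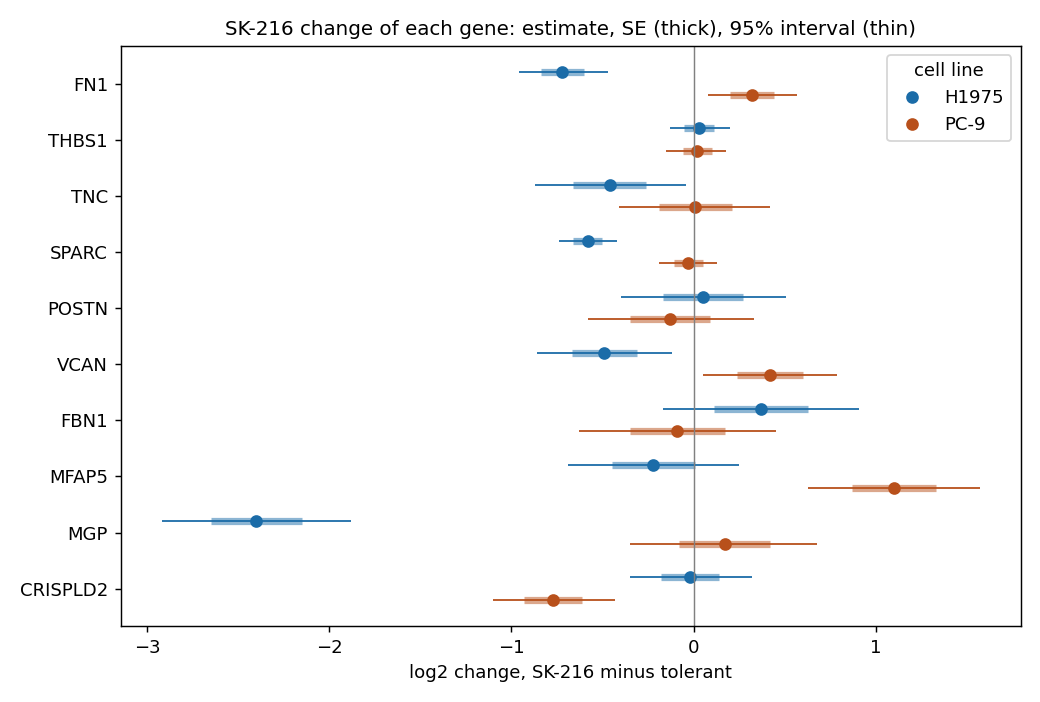
Log2 change with SK-216 (horizontal axis, SK-216 minus tolerant) for each gene in H1975 (blue) and PC-9 (orange), with the estimate as a dot, the standard error as a thick bar and the 95% interval as a thin line. MGP at -2.40, FN1 at -0.72 and SPARC at -0.58 lie below 0 in H1975, and in PC-9 MFAP5 lies at 1.10 and CRISPLD2 at -0.77.

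Around these genes, 137 related genes in 7 lists, none of them among the 10, were taken by function. The lists too were chosen with earlier results of these data known. Their shares and p-values are therefore a description and no independent support. In H1975 12 fell and 1 rose of the 137, or 9.49%, against 3.80% of all probe sets, with a median change of -0.04. The receptors of matrix proteins had 5 falls among 22, or 22.7%, and a median of -0.24. ITGB1, the integrin chain shared by fibronectin receptors, changed by -0.36 ± 0.07 (limma adjusted p = 0.00289), ITGAV, the integrin alpha chain of RGD-binding receptors, by -0.50 ± 0.12 (0.0119), SDC3, a syndecan, by -0.63 ± 0.14 (0.00872), and CD47, a thrombospondin receptor, by -0.39 ± 0.09 (0.0117). LRP1, the endocytic receptor that clears many matrix proteins, was the fifth fall at -0.58 ± 0.15 (0.0258), named after its values were seen. The call of ITGB1 held whichever single array was left out and ended without the variance trend. The SK-216 difference between the lines was called for 0 of the 22 receptors, so their falls were not shown to be particular to H1975. Of the 137 genes it was called for 2, SPP1 and SRGN, or 1.46%, against 1.42% of all probe sets.

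Among 23 microfibril and elastic fibre genes 2 fell and 1 rose in H1975, or 13.0%, against 3.80% of all probe sets. FBLN2, fibulin 2, changed by -1.21 ± 0.28 (limma adjusted p = 0.012), from 8.82, 8.34 and 7.64 to 6.91, 7.06 and 7.19. FBLN1, fibulin 1, changed by 0.73 ± 0.19 (limma adjusted p = 0.0246), from 6.17, 6.52 and 5.95 to 7.01, 6.65 and 7.17. These neighbouring family members went opposite ways. MFAP4 also passed (limma adjusted p = 0.00719), with both group means, 5.13 and 4.20, in the olfactory range, so no fold is given.

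Of 22 other matricellular genes 2 fell in H1975, or 9.09% against 3.80% of all probe sets, with a median of -0.12. TGFBI, an integrin-binding matrix protein, changed by -0.28 ± 0.07 (limma adjusted p = 0.0337), a call that ended with the replicate block (0.057) and with quantile normalization (0.0684). In PC-9 TGFBI changed by -0.31 ± 0.07 without a call (limma adjusted p = 0.0772). The difference between the lines was -0.03 ± 0.11 (limma adjusted p = 0.954), so the change was not shown to be particular to H1975. SPP1, osteopontin, passed (limma adjusted p = 0.00918) but moved from 5.19 to 4.50 at the edge of the olfactory range, while it was bright in PC-9, at 13.59 ± 0.10 (mean ± SD, n = 3) in tolerant cells. In the remaining lists the falls were 1 of 22 proteoglycan and hyaluronan genes, SRGN, serglycin, at -0.80 ± 0.17 (limma adjusted p = 0.00719), 1 of 10 Gla protein genes, PROS1, protein S, at -0.61 ± 0.14 (0.0133), and 1 of 27 proteases and inhibitors, BMP1, the procollagen C-proteinase, at -0.74 ± 0.17 (0.0128). The 11 CAP domain genes ran from -0.27 to 0.60 in H1975, with a median of 0.22 and no call by limma (2 at an unadjusted p below 0.05).

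The H1975 count rested in part on single arrays: of the 137 genes 6 were called without tolerant array 1, 6 without SK-216 array 1, and 7 without SK-216 array 3. Without tolerant array 1 the calls of BMP1, FBLN1, FBLN2, ITGAV, LRP1, SPP1 and TGFBI ended, and without SK-216 array 1 those and PROS1. Without tolerant array 3 those of CD47, FBLN1, MFAP4, PROS1 and SRGN ended, and without SK-216 array 3 those of FBLN1, LRP1, PROS1, SDC3, SRGN and TGFBI. Without tolerant array 2 those of ITGAV, LRP1, SDC3 and TGFBI ended, and without SK-216 array 2 those of CD47, ITGAV, SDC3 and TGFBI. Without the variance trend the calls of BMP1, CD47, FBLN1, FBLN2, ITGAV, ITGB1, LRP1, SDC3, SRGN and TGFBI ended, and with each line fitted alone those of FBLN1 and SPP1. In PC-9 1 of the 137 genes was called, or 0.73%, against 0.443% of all probe sets. It was CD44, the hyaluronan receptor, which rose by 0.48 ± 0.10 (limma adjusted p = 0.0229), from 13.38, 13.20 and 13.23 to 13.75, 13.85 and 13.65. Its call ended with the replicate block, without the variance trend, and without tolerant array 2 or 3 or SK-216 array 1 or 2 of PC-9 (adjusted p of up to 0.176 without 1 array). Between the lines 68 of the 137 genes differed in tolerant cells, 34 in each direction, or 49.6% against 44.0% of all probe sets.

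**Figure D4:**
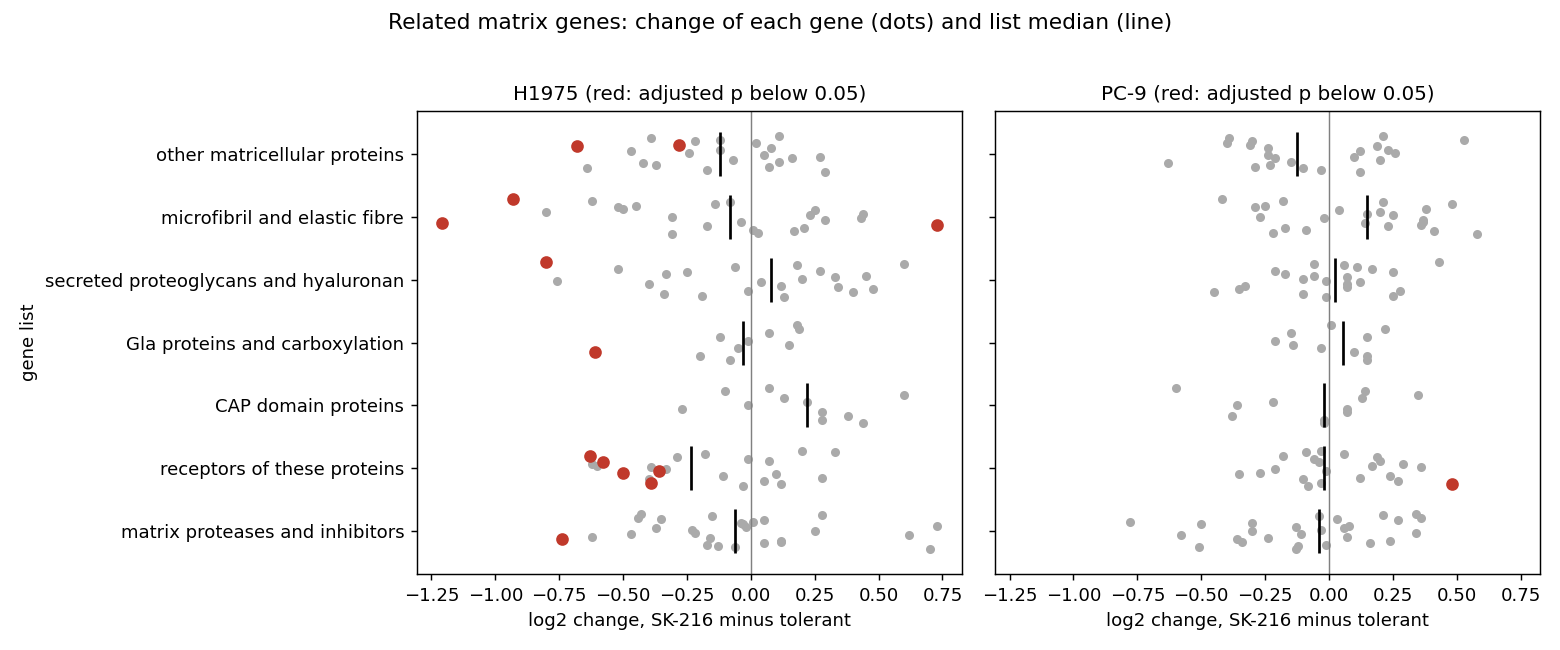
Log2 change with SK-216 (horizontal axis, SK-216 minus tolerant) of 137 related genes in 7 lists (vertical axis) in H1975 (left) and PC-9 (right); each dot is a gene, red where the adjusted p was below 0.05, and the black line is the list median. Of the red dots 12 lie below 0 and 1 above in H1975, and 1 above 0 in PC-9.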

How the data were processed

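The authors deposited 1 log2 value per probe set and array, with Transcriptome Analysis Console named per the submitters' processing notes; its version, the summarisation, the normalization and the genome build are not stated in the labels or headers used here. Deposited values, on a log2 scale, lay between 2.19 and 18.61 and array medians between 6.56 and 6.62. Arrays give no read depth, and 3 arrays per group limit the precision.

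Names came from the platform annotation: 17709 probe sets had 1 gene symbol, updated by Entrez identifier in RefSeq GRCh38.p14 and 3739 were unnamed. The 10 genes, the related lists and the rules were chosen with earlier results of these data known.

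A linear model of 4 group means was fitted to all 12 arrays and 21448 probe sets with limma 3.58.1 in R 4.3.3 (eBayes with a trend of variance on mean level, 8 residual degrees of freedom), with 5 two-sided contrasts. Benjamini-Hochberg adjustment ran over all probe sets of a contrast, and a probe set was called at an adjusted p below 0.05. Intervals are 95% intervals of single genes. The fit was tested on simulated data.

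From each related list up to 4 called genes with the smallest adjusted p were named per line. The motifs TGACGTCA and CCAAT were added after the promoters were read. Alternatives were array weights, quantile normalization, median centring, a fit of each line alone, no variance trend, a robust eBayes step, the replicate number as a block, dropping the 30% of probe sets with the lowest means, and leaving out each of the 12 arrays. Figures were drawn with matplotlib.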

Additional observations from a re-analysis of the deposited data

Results flagged for a closer look

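The SK-216 change was called different between the lines for 4 of the 10 genes in the fit over all 12 arrays. Of all probe sets 1.42% were, and nothing is read from this share. The difference, as PC-9 change minus H1975 change, was 2.57 for MGP, 1.04 for FN1, 0.55 for SPARC and 1.32 for MFAP5 on the log2 scale. Without the variance trend the call of MGP alone held, and MFAP5 kept its call in 3 of 12 fits that left out 1 array. MGP, FN1 and SPARC were lower with SK-216 in H1975, MFAP5 was higher in PC-9, and MFAP5 in H1975 and MGP in PC-9 lay at or near the level of olfactory receptor probe sets. The genes were proposed with both SK-216 contrasts known, so these values describe the arrays. With 3 arrays per group, single arrays that stand apart were not looked for.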

How the results depend on the processing

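Under the 20 alternatives no called gene changed sign. Of the 10 genes 3 to 4 were called for SK-216 in H1975, 8 to 9 between tolerant lines and 7 to 8 between SK-216 lines. For SK-216 in PC-9 limma called 2, but 0 without the variance trend (2 at an unadjusted p below 0.05) and 0 to 2 when 1 array was left out; for the difference between lines it called 4, but 1 without the trend and 3 to 5 when 1 array was left out. Of the 137 related genes, those called in H1975 numbered 13, but 3 without the trend and 6 to 14 when 1 array was left out. In PC-9 the 1 call became 0 without the trend (limma, 16 at an unadjusted p below 0.05), 2 without the dimmest probe sets, 2 with quantile normalization, and 0 to 2 when 1 array was left out. For the difference between lines the 2 calls became 0 without the trend (20 at an unadjusted p below 0.05) and 1 to 3 when 1 array was left out. With a replicate block in each line, 3 and 2 of the 10 genes were called in H1975 and PC-9 and 5 for the difference, while of the related genes 13, 0 (14 at an unadjusted p below 0.05) and 1 were. Deviations of same-numbered arrays of a line correlated at r between -0.091 and 0.029, and those of differently numbered arrays between -0.037 and 0.094. These values showed no pairing by number but do not settle whether same-numbered arrays belong together. The causes were not tested.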

Other observations

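The genes most like the 2 most changed genes of each line were found by Pearson's r over arrays, given as a description; the points share line and treatment group. Over all 12 arrays MGP ran closest to SAA1, an acute phase protein, at r = 0.966, DENND2B at 0.964 and BTD, biotinidase, at 0.963, and FN1 ran closest to CARD16 at 0.981 and NPTN and SMAD6, an inhibitory SMAD, at 0.976. With SK-216 in H1975 these genes changed by -1.48 ± 0.11 for SAA1, -1.27 ± 0.18 for DENND2B, -0.93 ± 0.16 for BTD, -0.84 ± 0.19 for CARD16, -0.43 ± 0.11 for NPTN and -1.31 ± 0.27 for SMAD6. Within the 6 arrays of H1975, BST2, an interferon-induced membrane protein, had r = 0.996 with MGP, and GNAI2, a G protein subunit, had r = 0.997 with FN1.

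In PC-9, within its 6 arrays, MFAP5 ran closest to GJA5, a gap junction protein, at r = 0.997 and TGM2, the transglutaminase that crosslinks matrix proteins, at 0.992, which changed with SK-216 by 0.63 ± 0.22 and 0.60 ± 0.11. CRISPLD2 ran closest to BAG5, a cochaperone, at 0.987 and DSG3, a desmosomal cadherin, at 0.985, which changed by -0.23 ± 0.11 and -0.73 ± 0.24. Over all 12 arrays CRISPLD2 had no gene above r = 0.873, reached by KRT25.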
